A study of Saccharomyces cerevisiae with 20 samples.

Results

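Yeast lacking SET1 and wild-type yeast were compared in the arrested state, at the moment the mating pheromone α-factor was washed away (0 min). The comparison set 1 library of each strain side by side. Genes were kept when at least 30 reads fell on them in at least one of the pair, which left 3960 of the 6532 features of the count table. Genes were ranked by the difference of log2(CPM + 1), set1Δ minus wild type, where CPM is the count of a gene as a share of the scaled library total, in parts per 1e+06. Each difference was then placed among the differences of the same gene at the other 9 time points. With 1 library a side there was no replicate error, so no test was possible and no p-value is given at 0 min. The differences of the other 9 time points served as a yardstick in which noise and change along the cell cycle cannot be told apart.

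The series holds 20 libraries of Saccharomyces cerevisiae made by PAT-seq, an assay that sequences the 3′ ends of polyadenylated RNA and so counts each gene's transcripts and measures their poly(A) tails. Wild type was W303a, a laboratory strain of mating type a, and the other strain was labelled as a deletion of SET1 in that background. Both grew in rich YPD medium at 30 °C and were held for about 2 h in 5 µg/ml α-factor, until at least 95% of cells had no bud. Each strain gave 1 asynchronous library, taken without pheromone, and 1 library every 15 min from 0 to 120 min after release. The labels name no second culture or clone of either strain and do not say how the gene was removed, so clone, culture and deletion cannot be told apart. The counts come from bulk RNA, in which fewer cells making a transcript and less transcript per cell cannot be told apart.

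Set1 is the enzyme of the COMPASS complex, which places methyl groups on histone H3 at lysine 4 near the starts of transcribed genes. Pheromone binds a receptor on a cells and acts through a G protein and a chain of kinases on the transcription factor Ste12, which turns on genes for mating, while Far1 holds the cell in G1. Long exposure also makes the cell grow a mating projection, which loads the cell wall integrity pathway (Pkc1 and the kinase Slt2) and the calcium phosphatase calcineurin. Genes for making ribosomes and genes of the general stress response are often regulated in opposite directions in yeast, the first through promoter elements called PAC and RRPE and the second through the stress response element (STRE) bound by Msn2 and Msn4.

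Both libraries carried the marks of arrested a cells. The summed level of 12 genes of budded cells went from 3788 CPM in the asynchronous wild-type library to 505 CPM at 0 min, and from 3194 to 621 CPM in set1Δ. The summed level of 6 pheromone-induced genes went from 175 to 4549 CPM in wild type and from 146 to 3182 CPM in set1Δ. The 4 defining genes of α cells summed to 33.7 CPM in wild type and 76.1 CPM in set1Δ, and their receptor gene STE3 had 1 read in each library. SET1 itself, in wild type, had 22 reads (32.3 CPM) at 0 min and, in set1Δ, 10 reads (6.56 CPM), a log2 difference of −2.14, and it missed the 30-read minimum. A 3′ tag outside the removed stretch would not report the deletion, and the labels do not give that stretch.

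The arrested libraries differed in depth. Wild type held 668987 reads and set1Δ 1531047 reads, a ratio of 2.29, in a series that ran from 476565 to 2413354 reads. The 30-read minimum therefore stood at 44.0 CPM in wild type and 19.7 CPM in set1Δ. Of the 3960 genes, 2660 passed in both libraries, 1265 through set1Δ alone and 35 through wild type alone. The filter thus let in genes that were low in wild type and high in set1Δ more readily than the reverse. The 125 genes with 30 to 32 reads in their deeper library had a median difference of −0.15, and the 155 genes just outside, at 27 to 29 reads, had a median of 0.00.

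At 0 min 298 genes were at least 2-fold higher in set1Δ (7.53% of the 3960) and 249 were at least 2-fold lower (6.29%). On the log2(CPM + 1) scale the lower side reached further. On it no gene was 8-fold higher and 12 were 8-fold lower, and 16 were 4-fold higher against 53 that were 4-fold lower. The added 1 shrinks ratios that rest on few reads. IRC18, at 2.93 CPM in wild type and 30.2 CPM in set1Δ, and MF(ALPHA)2, at 5.87 and 51.2 CPM, passed 8-fold without it. The exact binomial (Clopper-Pearson) 95% interval of the ratio, which covers counting error only, lay above equality for 286 of the 298 genes and below it for all 249. It lay wholly beyond 2-fold for 29 of the higher and 121 of the lower genes. The higher genes rested on fewer reads, with a median of 17 in wild type and 94 in set1Δ, while the lower genes had medians of 103 and 74 reads. With at least 30 reads required in both libraries, 91 genes were higher and 211 lower, and with the same CPM minimum in both, 184 were higher and 246 lower. The part of depth in the number of higher genes was not tested.

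The difference between the strains was wider at 0 min than in asynchronous cells. Over the same 3960 genes, 37 were at least 2-fold apart in the asynchronous pair, 547 at 0 min and 348 at 15 min. The standard deviation of the differences across genes was 0.34 (log2) in the asynchronous pair, 0.72 at 0 min and 0.51 at 90 min. The asynchronous libraries held 2312642 reads in wild type and 2200423 in set1Δ, against 668987 and 1531047 at 0 min. The 3960 genes were also chosen by their reads at 0 min. The part of counting error in the wider spread was not tested. Time points 30, 105 and 120 min had more genes 2-fold apart than 0 min, with 570, 592 and 1032. Of the 298 genes higher at 0 min, 9 were also 2-fold higher in asynchronous cells (3.02%, beside 0.707% of the 3960) and 48 were above 0 at all 9 other time points (16.1%, beside 5.05%). Of the 249 lower genes, 2 were 2-fold lower in asynchronous cells (0.803%, beside 0.227%) and 55 were below 0 at all 9 (22.1%, beside 5.15%). These shares are descriptions, with no test.

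**Figure D1:**
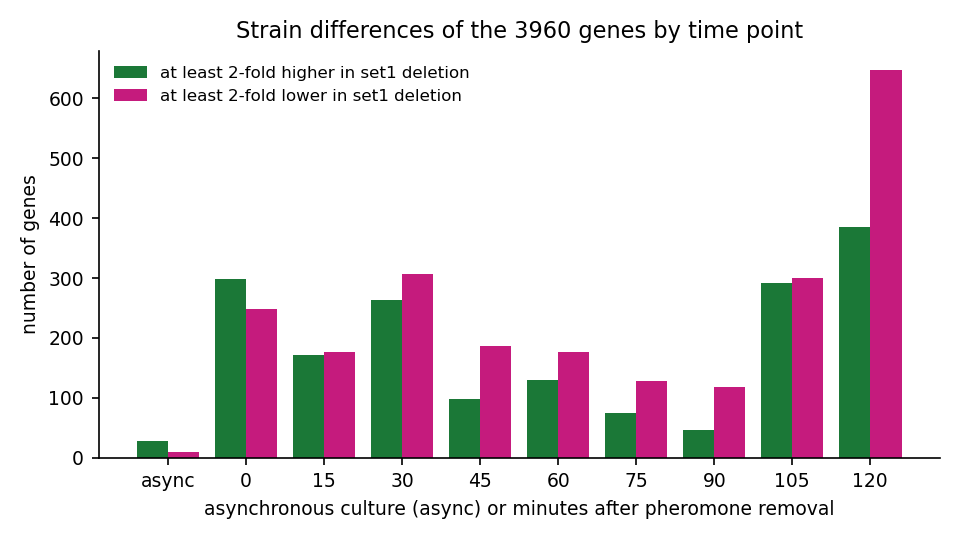
Number of genes (of 3960) at least 2-fold higher (green) or lower (magenta) in set1Δ than in wild type, in the asynchronous pair and by minutes after pheromone removal, with 1 library per strain and time point. The asynchronous pair has 28 and 9 genes, 0 min 298 and 249, and 120 min 385 and 647. Genes were chosen by their reads at 0 min, and the libraries differ in depth.

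Some differences of the arrested state stood outside those of the other time points. At 0 min 195 genes were at least 2-fold higher and above all 9 of their other differences (4.92% of the 3960), and 140 were at least 2-fold lower and below all 9 (3.54%). The same count over the other time points ran from 12 higher and 2 lower in asynchronous cells to 309 higher and 551 lower at 120 min. Across the 3960 genes, Pearson's r of the 0 min differences was 0.15 with the asynchronous pair, 0.37 with 15 min and 0.44 with 105 min. These are descriptions over genes that share libraries, and genes are not independent replicates.

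**Figure D2:**
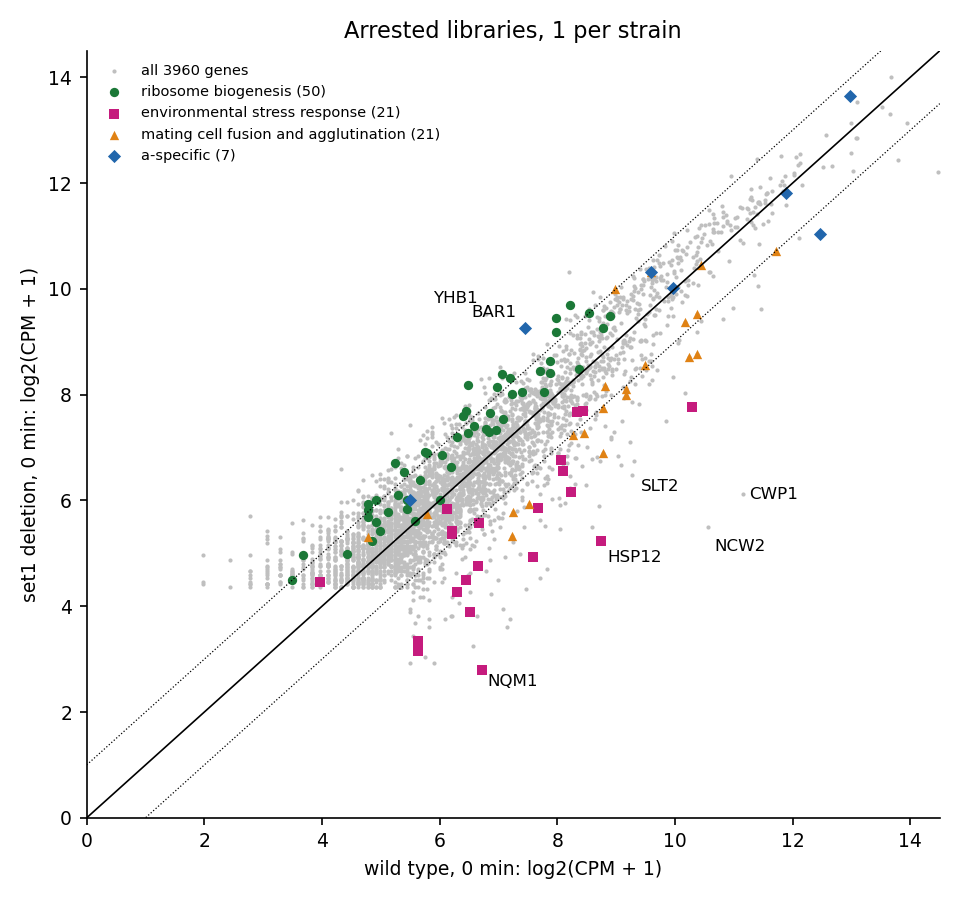
Level of each of the 3960 genes at 0 min in wild type (horizontal) and set1Δ (vertical), both as log2(CPM + 1), with 1 library per strain; the solid line marks equality and the dotted lines 2-fold. Ribosome biogenesis genes lie on or above equality except 1, stress genes lie below it except 1, and most mating fusion genes lie between equality and 4-fold lower; the flat lower edge is the 30-read minimum of the set1Δ library.

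The environmental stress response, genes switched on by many kinds of stress, was the list furthest below wild type. Of its 32 genes, 21 passed the read minimum, 15 were at least 2-fold lower and none was 2-fold higher. Among all 3960 genes, 6.29% were 2-fold lower and 7.53% higher. For 12 of the 15 listed genes, the difference lay below all 9 of the gene's other differences, beside 140 of all 249 lower genes. The median difference of the list was −1.89, beside 0.08 over all 3960 genes, while its medians at the other 9 time points ran from −0.80 to 0.14. Over the 15 members with 30 reads in both libraries the median was −1.54. HSP12, which encodes a small membrane-stabilising heat shock protein, had 292 reads (428 CPM) in wild type and 56 reads (36.7 CPM) in set1Δ, 11.4-fold lower, with a counting interval of −3.98 to −3.13 (log2). Its differences elsewhere ran from −0.89 to 0.36. NQM1, a homologue of transaldolase, had 71 reads (104 CPM) against 9 reads (5.90 CPM), a log2 difference of −3.93, beside −1.43 to 1.30 at the other times. The wild-type level of each was above its own asynchronous level (161 CPM for HSP12 and 4.40 CPM for NQM1), whereas the set1Δ level was below (108 CPM and 12.3 CPM).

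Sequence upstream of stress genes is shown because the STRE (AGGGG, or CCCCT on the other strand, in capitals) was common in it. The windows hold 300 bases, from base 350 to base 51 before the annotated start codon, read on the strand of the gene from the RefSeq assembly R64 of strain S288C, since the sequence of the W303 strains was not read. HSP12 is at chrVI:106906-107205 (plus strand) and NQM1 at chrVII:581487-581786 (minus strand), and each window holds 2 STREs.
HSP12: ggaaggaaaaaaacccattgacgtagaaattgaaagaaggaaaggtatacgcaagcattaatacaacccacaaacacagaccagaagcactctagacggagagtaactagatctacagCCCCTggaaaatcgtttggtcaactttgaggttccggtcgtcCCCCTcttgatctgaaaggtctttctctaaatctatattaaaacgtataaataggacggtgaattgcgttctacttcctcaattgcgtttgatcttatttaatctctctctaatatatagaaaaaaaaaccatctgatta
NQM1: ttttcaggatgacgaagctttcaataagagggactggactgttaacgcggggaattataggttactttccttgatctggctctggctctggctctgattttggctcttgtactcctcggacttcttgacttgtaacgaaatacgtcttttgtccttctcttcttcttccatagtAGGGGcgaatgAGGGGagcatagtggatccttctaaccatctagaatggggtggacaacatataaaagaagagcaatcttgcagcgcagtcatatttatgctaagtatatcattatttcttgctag
An STRE stood in 23.3% of all 5859 promoters, in 22.4% of the 3882 genes of the comparison with a window, in 43.9% of the genes 2-fold lower at 0 min and in 13.1% of those 2-fold higher. Of the stress list 19 of 21 members had one. Beyond that list, 850 genes with an STRE had a median difference of −0.07, with 93 lower and 38 higher, and 3013 genes without one had a median of 0.12, with 138 lower and 253 higher. A match is only a description of these letters.

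Genes of the reserve carbohydrates trehalose and glycogen stood lower as well, and several are also in the stress list. For the counts that follow, the shares among all 3960 genes were 6.29% at least 2-fold lower and 7.53% higher. Of 11 measured genes of trehalose and glycogen (18 listed), 7 were at least 2-fold lower and none higher, with a median of −1.10 beside −0.87 to 0.23 at the other times. PGM2, the main phosphoglucomutase, had 131 reads (192 CPM) in wild type and 45 reads (29.5 CPM) in set1Δ, a difference of −2.66. GPH1, glycogen phosphorylase, had 62 reads (91.0 CPM) and 21 reads (13.8 CPM), a difference of −2.64. GLK1, glucokinase, had 856 reads (1256 CPM) and 332 reads (218 CPM), and its −2.52 lay 1.72 below the lowest of its other 9 differences. GPP2, a glycerol phosphatase, was at 543 and 101 CPM, 1.67 below its lowest other difference, and GPD1, which makes glycerol 3-phosphate, was at 423 and 106 CPM. Of 21 glycolysis genes, 5 were 2-fold lower and none higher, yet the list's median was −0.11, so the lower members stood apart from the rest of the list. Of 16 measured genes of hexose transport and glucose signalling (27 listed), 2 were higher and 2 lower, with a median of −0.08, or −0.57 over the 10 with 30 reads in both libraries. HXT2, a hexose transporter, was at 261 and 64.9 CPM, and MIG3, a repressor related to Mig1, had 4 and 37 reads. The heat shock and chaperone list had 3 of 21 lower and a median of −0.06, and those 3 (HSP12, SSA4 and HSP42, the last named after its value was seen) are also stress genes.

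The 2 lowest genes of all coded for proteins of the cell wall. NCW2, a wall protein, had 1029 reads (1510 CPM) in wild type and 67 reads (43.9 CPM) in set1Δ, 33.6-fold lower, with a counting interval of −5.48 to −4.75. It was below wild type at all 9 other times, by −4.09 to −0.46. CWP1, a mannoprotein of the wall, had 1559 reads (2287 CPM) against 105 reads (68.9 CPM), 32.7-fold lower. Its −5.03 lay 1.92 below its lowest other difference, and the asynchronous levels were 831 and 755 CPM, so the set1Δ level at arrest was below its own asynchronous level. PST1, another wall protein, was at 208 and 22.3 CPM, and YPS3, a wall-anchored protease, at 384 and 43.9 CPM. Wall genes did not all differ in one direction. Of 20 measured mannoprotein genes, 3 were 2-fold higher and 4 were 2-fold lower, with a median of −0.12. The balance leaned lower over the 15 with 30 reads in both libraries, where 1 was higher, 4 were lower and the median was −0.385. For comparison, 7.53% of all 3960 genes were 2-fold higher and 6.29% lower. Of the 2660 genes with 30 reads in both libraries, 91 were higher and 211 lower.

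Genes of the cell wall integrity and calcineurin pathways were gathered into lists after the values had been seen. Their counts therefore describe the chosen genes and are no evidence about the pathways. Over all 3960 genes, 6.29% were at least 2-fold lower and 7.53% at least 2-fold higher. Of 22 measured wall integrity genes (28 listed), 9 were at least 2-fold lower and none higher, with a median of −0.81 beside −0.89 to 0.04 at the other times. SLT2, the kinase of the pathway, had 420 reads (616 CPM) in wild type and 134 reads (87.9 CPM) in set1Δ, a difference of −2.80. From asynchronous cells (55.8 and 58.1 CPM) its level was 3.44 higher (log2) at arrest in wild type and 0.59 higher in set1Δ. GSC2, a glucan synthase made under wall stress, was at 632 and 107 CPM. Of 15 calcineurin genes, 6 were at least 2-fold lower, each below all 9 of its other differences, and none was higher. CMK2, a calmodulin-dependent kinase, had 180 reads (264 CPM) and 66 reads (43.3 CPM), a difference of −2.58 beside −2.32 to −0.21. In asynchronous cells CMK2 was at 30.8 and 26.4 CPM and GSC2 at 33.0 and 53.7 CPM, so the wild-type levels of these genes were higher at arrest by far more than the set1Δ levels.

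Most genes of the pheromone receptor and kinase cascade were within 2-fold of each other. In the receptor and kinase cascade, 22 of 26 genes passed, 1 was 2-fold higher, 3 were 2-fold lower, and the median was −0.10. Among all 3960 genes, 7.53% were 2-fold higher and 6.29% lower. STE2, the α-factor receptor, was at 1002 and 1035 CPM and GPA1, the inhibitory G protein subunit, at 676 and 360 CPM. The scaffold STE5 (69.0 and 54.4 CPM), the kinase FUS3 (996 and 721 CPM) and the transcription factor STE12 (36.7 and 30.8 CPM) differed by less than 2-fold. STE4 (244 and 229 CPM) and STE18 (101 and 96.4 CPM), the other subunits of the G protein, differed by −0.09 and −0.07, and SST2, which turns the G protein off, by −0.08. The kinases STE20 and STE7 differed by 0.49 and −0.09, and STE50 and DIG1 by −0.38 and −0.32. The polarity genes CDC24, CDC42, BEM1 and RGA1 differed by −0.16 to −0.01, and the phosphatase PTP3 by 0.14. STE3, STE11, KSS1 and DIG2 missed the read minimum. FAR1, the arrest factor, was at 918 CPM in wild type and 1050 CPM in set1Δ, a difference of 0.19. The 3 lower genes of the cascade list were the phosphatases MSG5 (359 and 77.4 CPM) and PTP2 (227 and 84.0 CPM), which act on kinases of these pathways, and AFR1 (287 and 113 CPM), which shapes the projection.

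Of 22 genes for agglutination and cell fusion, 21 passed, 11 were at least 2-fold lower and 1 was higher, with a median of −1.03. Among all 3960 genes, 6.29% were 2-fold lower and 7.53% higher. None of the 11 lower genes of the list had a difference below all 9 of its other differences. The list's medians from 15 to 120 min ran from −3.84 to −1.72, and in asynchronous cells its median was 0.14, so the arrested difference lay between them. FIG1, a membrane protein needed for fusion, had 784 reads (1150 CPM) and 1015 reads (666 CPM), a difference of −0.79. FUS1, which acts in fusion, had 306 reads (449 CPM) and 436 reads (286 CPM), a difference of −0.65. The largest was PRM10, at 150 and 39.4 CPM (−1.90), followed by PRM8, at 436 and 117 CPM (−1.88). AGA1, the anchor of the a-cell agglutinin, had 945 reads (1386 CPM) and 2121 reads (1391 CPM), and its counting interval of −0.11 to 0.12 included no difference. The 1 higher gene, SCW4, a wall glucanase, was at 502 and 1019 CPM, while its paralogue SCW10 was at 1329 and 739 CPM. Among 9 measured genes of nuclear fusion, 3 were 2-fold lower, CIK1 (296 and 86.6 CPM), PRM3 (1203 and 417 CPM) and KAR5 (292 and 130.5 CPM), and KAR4, a partner of Ste12, was at 406 and 252 CPM.

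The median of the genes that define a cells lay above 0, unlike that of the mating genes, though AGA2 is in both lists. Of the 7, 5 lay above 0 and 2 below, 1 was 2-fold higher (BAR1) and 1 was 2-fold lower (ASG7). STE2 (0.047) and MFA2 (−0.085) lay close to equality, and the median was the value of STE6. The median over the 7 genes was 0.51 at 0 min, while the medians at all 9 other times were below 0, from −3.48 to −0.44. Among all 3960 genes, 55.6% lay above 0, 7.53% were 2-fold higher and 6.29% lower. BAR1, the secreted protease that degrades α-factor, had 118 reads (173 CPM) in wild type and 938 reads (615 CPM) in set1Δ, a difference of 1.82 with a counting interval of 1.55 to 2.12. Its other differences ran from −3.57 to 0.63, and the asynchronous levels were 101 and 110 CPM. AGA2, the binding subunit of the agglutinin, had 524 reads (769 CPM) and 1931 reads (1267 CPM), a difference of 0.72, and was below wild type at all 9 other times. MFA1, coding for the pheromone a-factor, was at 8089 and 12760 CPM, and MFA2, the second a-factor gene, at 3801 and 3584 CPM. STE6, the exporter of a-factor, was at 44.0 and 63.0 CPM, with a counting interval of −0.09 to 1.16. ASG7 went the other way, at 5636 CPM in wild type and 2111 CPM in set1Δ (−1.42).

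The pheromone response element (TGAAACA or TGTTTCA, in capitals), bound by Ste12, is shown for BAR1 and FUS1, which lay on opposite sides of equality although each window holds 2 of them. BAR1 is at chrIX:321992-322291 and FUS1 at chrIII:71453-71752, both on the plus strand and both from R64.
BAR1: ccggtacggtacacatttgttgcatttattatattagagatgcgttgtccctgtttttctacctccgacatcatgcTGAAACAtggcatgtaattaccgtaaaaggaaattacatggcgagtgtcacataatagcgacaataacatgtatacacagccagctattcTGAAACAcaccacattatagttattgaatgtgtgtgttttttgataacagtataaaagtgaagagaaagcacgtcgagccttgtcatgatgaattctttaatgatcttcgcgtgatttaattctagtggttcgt
FUS1: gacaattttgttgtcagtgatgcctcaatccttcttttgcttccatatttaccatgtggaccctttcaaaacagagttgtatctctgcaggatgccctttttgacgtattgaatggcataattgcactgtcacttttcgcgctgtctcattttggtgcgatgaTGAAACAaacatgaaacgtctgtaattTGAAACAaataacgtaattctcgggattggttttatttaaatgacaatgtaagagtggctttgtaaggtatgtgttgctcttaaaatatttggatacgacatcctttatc
The element stood in 7.20% of all promoters, in 8.94% of the genes 2-fold lower, in 7.22% of those 2-fold higher and in 11 of 21 mating fusion genes. The 300 genes of the comparison that hold it had a median difference of 0.01, with 21 higher and 22 lower.

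Ribosome biogenesis genes had the highest median of the lists with at least 3 measured genes. All 50 listed genes passed, 49 lay above 0, 19 were at least 2-fold higher and none was 2-fold lower. Among all 3960 genes, 55.6% lay above 0, 7.53% were 2-fold higher and 6.29% were 2-fold lower. For 14 of the 19 listed genes, the difference lay above all 9 of the gene's other differences, beside 195 of all 298 higher genes. The list's median was 0.80, beside −0.06 to 0.51 at the other times, and it was 0.80 over the 34 members with 30 reads in both libraries. Of those 34, 12 were 2-fold higher, beside 91 of all 2660 genes with 30 reads in both. UTP10, a subunit of the small-subunit processome, had 60 reads (88.0 CPM) in wild type and 441 reads (289 CPM) in set1Δ, 3.26-fold higher, with a counting interval of 1.33 to 2.13. Its asynchronous levels were 231 and 271 CPM, so the set1Δ level was near its own asynchronous level and the wild-type level was below. DRS1, a helicase of the large subunit's assembly, had 201 reads (295 CPM) and 1269 reads (832 CPM), a difference of 1.49. RRS1, also needed for the large subunit but outside the list and named after its value was seen, had 26 reads (38.1 CPM) and 189 reads (124 CPM), a difference of 1.68. The ribosome assembly genes MAK11, RRP36, ECM1 and DHR2, outside the list, were among the 12 highest of all genes, but wild type gave only 2 to 5 reads for each. For MAK11 the reads were 2 and 32, with a counting interval of 0.87 to 5.95, and for RRP36 they were 5 and 64, with 1.22 to 4.19.

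PAC (GATGAG or CTCATC) and RRPE (AAAAATTT or AAATTTTT) are shown in capitals for UTP10 and RRS1. UTP10 is at chrX:217360-217659 (minus strand) and RRS1 at chrXV:867990-868289 (plus strand) of R64. The UTP10 window holds 1 PAC and 2 RRPEs, and that of RRS1 holds 2 of each, which overlap.
UTP10: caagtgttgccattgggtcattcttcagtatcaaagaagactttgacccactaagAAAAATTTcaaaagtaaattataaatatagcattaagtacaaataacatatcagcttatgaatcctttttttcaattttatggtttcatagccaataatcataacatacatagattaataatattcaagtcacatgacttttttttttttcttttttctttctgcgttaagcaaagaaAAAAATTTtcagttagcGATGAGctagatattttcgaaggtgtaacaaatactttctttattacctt
RRS1: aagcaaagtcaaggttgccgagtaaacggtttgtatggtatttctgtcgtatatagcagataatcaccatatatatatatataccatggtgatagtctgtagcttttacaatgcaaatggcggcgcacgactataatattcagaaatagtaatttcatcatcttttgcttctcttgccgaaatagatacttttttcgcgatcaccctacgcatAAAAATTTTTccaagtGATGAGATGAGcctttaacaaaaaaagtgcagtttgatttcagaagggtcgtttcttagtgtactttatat
PAC stood in 19.4% of all promoters, in 47.1% of the genes 2-fold higher and in 14.2% of those 2-fold lower. RRPE stood in 15.9%, 40.2% and 6.10%. Of the 309 genes of the comparison with both elements, 84 were 2-fold higher and 1 was 2-fold lower, with a median of 0.64, beside 0.03 for the other 3573. Leaving out the ribosome biogenesis list, 270 genes with both remained, with a median of 0.61, 68 higher and 1 lower. Many higher genes passed the read minimum only in the deeper set1Δ library. With 30 reads required in both libraries 91 genes were 2-fold higher, and the motifs were not recounted over those.

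**Figure D3:**
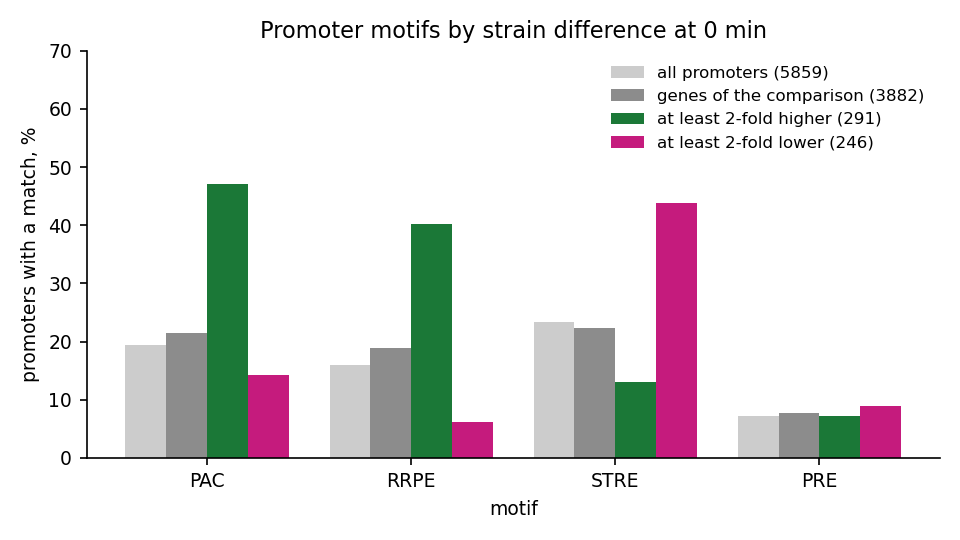
Share of promoters (vertical, percent) with at least 1 match to each motif, for all 5859 promoters, the 3882 genes of the comparison with a window, and the genes at least 2-fold higher (291) or lower (246) in set1Δ at 0 min. PAC and RRPE reach 47.1% and 40.2% in the higher genes, STRE reaches 43.9% in the lower genes, and the pheromone response element (PRE) lies between 7.20% and 8.94% in all groups.

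Other genes of protein synthesis leaned the same way by smaller amounts, in their medians rather than in their counts of 2-fold genes. Over all 3960 genes, 7.53% were 2-fold higher, 55.6% lay above 0 and the median was 0.08. Of 135 measured cytosolic ribosomal protein genes, 128 lay above 0 and 4 were 2-fold higher, with a median of 0.44 beside −0.32 to 0.20 at the other times. Their summed level was 237000 CPM in wild type and 303000 CPM in set1Δ. RPS26B was at 387 and 977 CPM, and RPS20 at 54.3 and 144 CPM. Of 27 translation factor genes, TIF2 (365 and 758 CPM) was 2-fold higher, and the median was 0.49. Of 60 mitochondrial ribosomal protein genes, 5 were 2-fold higher, with a median of 0.22, or 0.14 with none 2-fold higher over the 29 with 30 reads in both libraries, and RSM22 led them on 3 and 43 reads. In purine synthesis, which feeds RNA synthesis, IMD4 (1989 and 4466 CPM) and GUA1 (370 and 788 CPM), both of the guanine branch, were 2-fold higher among 16 genes, and the salvage gene HPT1 was at 44.0 and 170.5 CPM. Several of these genes have close paralogues, and reads shared between copies cannot be placed with certainty.

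**Figure D4:**
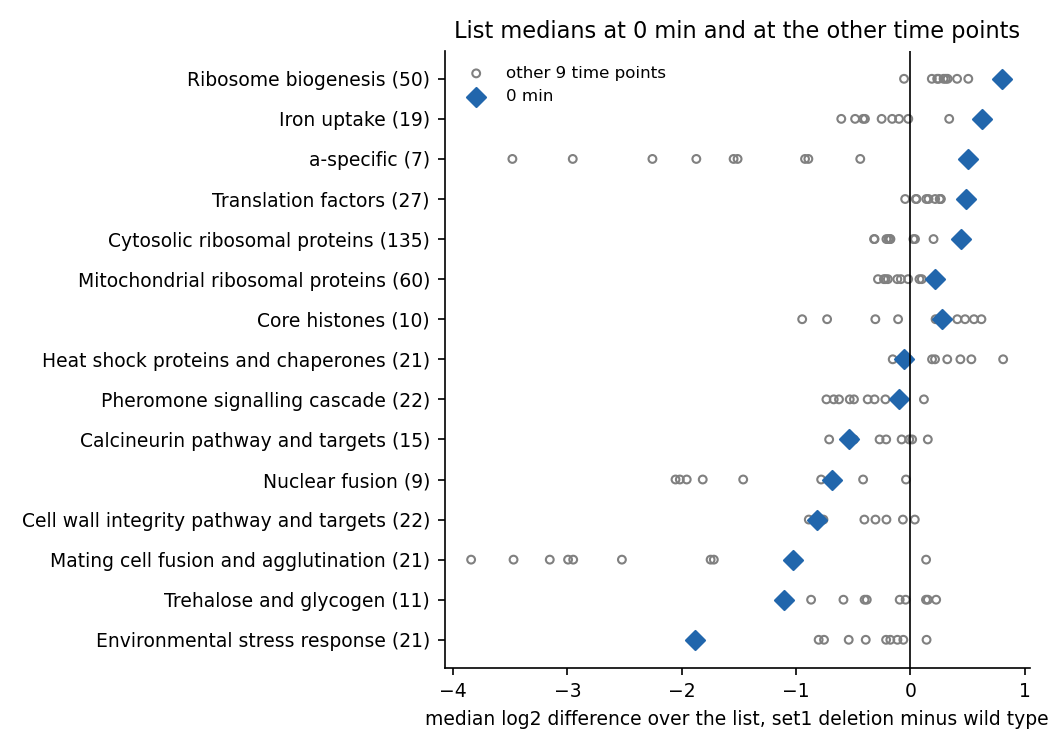
Median log2 difference (horizontal, set1Δ minus wild type) of 15 gene lists at 0 min (blue diamonds) and at the other 9 time points (open circles), with the number of measured genes in brackets. Ribosome biogenesis (0.80), a-specific genes (0.51) and cytosolic ribosomal proteins (0.44) lie above all their other medians, and the stress response (−1.89) and trehalose and glycogen (−1.10) lie below all of theirs.

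Single genes of other functions were among the most different. YHB1, the flavohaemoglobin that detoxifies nitric oxide, had 75 reads (110.0 CPM) in wild type and 1122 reads (736 CPM) in set1Δ, 6.64-fold higher with a counting interval of 2.40 to 3.10, above all its other differences (0.22 to 1.61). IRC18 had 2 reads in wild type and 46 in set1Δ, with a counting interval of 1.43 to 6.45, and SRT1, which makes dolichols, had 2 and 31. YHR020W, a prolyl-tRNA synthetase gene, had 13 and 145 reads, and PPT1, a phosphatase, had 5 and 54. On the lower side SRL3 (141 and 11.2 CPM), CPP3 (145 and 12.5 CPM), AUA1 (93.9 and 8.53 CPM) and YPL088W (134 and 14.4 CPM) were at least 8-fold lower. MF(ALPHA)2, one of the α-factor genes and normally silent in a cells, had 4 and 78 reads, an interval of 1.71 to 5.04, and differences of −0.49 to 3.99 elsewhere. CAR2, of arginine breakdown, was lower, with 154 reads (226 CPM) and 38 reads (24.9 CPM), while ARG1, of arginine synthesis, was higher, with 13 and 94 reads. In iron uptake, 4 of 19 genes were 2-fold higher and none lower, with a median of 0.63. Over the 9 with 30 reads in both libraries, 2 were higher and the median was also 0.63. Among all 3960 genes 7.53% were 2-fold higher, and so were 91 of the 2660 with 30 reads in both. FRE1, the surface ferric reductase, was at 103 and 312 CPM and CCC2, which supplies copper to the iron oxidase, had 6 and 59 reads. TGS1, with 3 and 30 reads, converges on PRM4, whose 3′ end is its neighbour, and the sources used here do not give the strand setting of the counts.

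Most cell cycle genes were within 2-fold of each other in the arrested pair. Of 34 measured G1/S genes, 6 were 2-fold higher and 1 lower, with a median of 0.57, beside −0.48 to 1.37 at the other times. Over the 13 of them with 30 reads in both libraries, 1 was higher and 1 lower, and the median was 0.24. Among all 3960 genes 7.53% were 2-fold higher and 6.29% lower. With 30 reads in both libraries, 91 of 2660 genes were higher and 211 lower. MSH6, of mismatch repair, had 5 and 60 reads. The G1 cyclin CLN2 was at 44.0 and 81.3 CPM and CLN1 at 32.3 and 28.2 CPM, while the cyclin PCL2 was lower at 549 and 180 CPM. The Cdk inhibitor SIC1 was at 67.5 and 68.9 CPM, with an interval of −0.48 to 0.56, and CLB2 had 1 read in each library. None of 10 core histone genes was 2-fold apart, and the median was 0.28. TUB1, the main α-tubulin, was at 197 and 214.5 CPM, and TUB2 (91.0 and 134.5 CPM) and TUB3 (73.3 and 106 CPM) were within 2-fold. TUB4, γ-tubulin, was at 36.7 and 78.7 CPM, with an interval of 0.47 to 1.79.

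Genes within 20 kb of a chromosome end were more often 2-fold lower than 2-fold higher. Of 233 features within 20 kb of an end, 66 passed the read minimum, 12 were at least 2-fold lower (18.2%) and none was 2-fold higher. Among 143 genes at 20 to 40 kb, 6.99% were lower and 10.5% higher. Among 3673 genes more than 40 kb away, 6.10% were lower and 7.51% higher. The median over the 66 was −0.07, and over the 35 with 30 reads in both libraries it was −0.51, with 9 lower. Of all 2660 genes with 30 reads in both, 211 were lower, and their median was −0.02. PUG1, a membrane protein for porphyrins, was at 176 and 19.0 CPM and DIA1 at 418 and 58.4 CPM. HXK1 and MSC1, of the stress list, were among the 12 lower genes within 20 kb, and so were COS1, COS3 and COS4 of a repeated family whose copies may share reads. These names other than PUG1, DIA1 and MSC1 were chosen after their values were seen.

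Levels at arrest were also set against the asynchronous library of the same strain. These values share the 0 min libraries with the strain difference and so are no independent measure of it. The 298 higher genes had a median change from asynchronous to arrested cells of −1.11 in wild type and 0.10 in set1Δ. The 249 lower genes had medians of 1.29 in wild type and −0.11 in set1Δ. Over all 3960 genes, 355 were 2-fold above and 325 2-fold below their asynchronous level in wild type, against 118 and 89 in set1Δ. The wild-type 0 min library was the shallower one, which widens its counting error, and the part of depth in these counts was not tested.

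**Figure D5:**
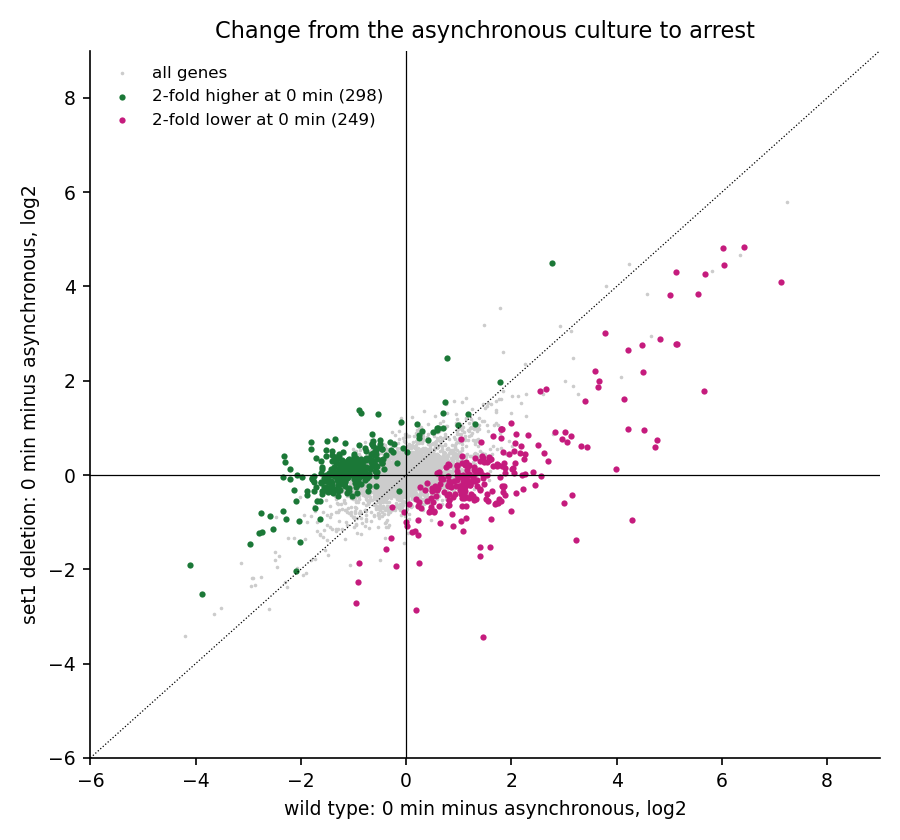
Change of each gene from the asynchronous to the arrested library in wild type (horizontal) and set1Δ (vertical), as differences of log2(CPM + 1); the dotted line marks equal change. Genes 2-fold higher at 0 min (green, median −1.11 in wild type and 0.10 in set1Δ) and genes 2-fold lower (magenta, medians 1.29 and −0.11) spread mainly along the wild-type axis, and these groups were chosen with the same 0 min libraries.

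Poly(A) tails at arrest were close in length between the strains. Tails were compared for the 3999 genes that had 10 or more poly(A) reads in each arrested library. Over these, the median of the mean tail lengths was 27.5 nt in wild type and 27.8 nt in set1Δ, and the median difference was 0.05 nt, beside −3.54 to 0.31 nt at the other times. Over the 831 genes with 100 or more poly(A) reads it was −0.50 nt. Tails of cytosolic ribosomal protein transcripts were shorter in set1Δ for 109 of 135 genes, with a median of −1.05 nt. Among all 3999 genes, 1972 were shorter. The tails of this list at the other times were not compared. Genes 2-fold higher in reads had a median tail difference of −0.81 nt and genes 2-fold lower one of 0.60 nt, and across 3668 genes Spearman's rho between both differences was −0.08. BAR1 had a mean tail of 28.5 nt in wild type (117 poly(A) reads) and 22.9 nt in set1Δ (842 poly(A) reads). PRM8 had 38.3 nt (266 poly(A) reads) and 42.7 nt (161 poly(A) reads). Counting poly(A) reads alone gave differences with Pearson's r of 0.95 to those of all reads over the 3960 genes.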

How the data were processed

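PAT-seq counts of 20 libraries were used, 1 per strain and time point. The authors deposited whole-number read counts per feature, counts restricted to poly(A)-tailed reads, and the mean tail length of those reads in nucleotides. All other values were computed here. Per the labels, libraries were made from 1 µg of total RNA and sequenced as single reads of 150 nt. Bowtie2 2.2.5, Bowtie and the build sacCer3 are listed, with no roles, in the submitters' processing notes. How features were counted, with which strand setting and filters, is not given in the sources used here.

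Library totals were scaled with TMM factors over the 20 libraries (edgeR 4.0.16, R 4.3.3), and the log scale is log2(CPM + 1), which understates the change of low genes. CPM carries no length correction, so levels were not compared between genes. Fold changes are on that scale. Counting intervals are 95% Clopper-Pearson limits of the ratio without the added 1, and cover counting error only. Steps were run on simulated counts with counting error alone, and known changes were placed only in genes expected to have at least 30 wild-type reads. That run held no variation between cultures or libraries. It does not test the calls of genes with fewer wild-type reads. Of the features, 5867 matched 1 named gene of R64, and 665 did not and keep their identifiers.

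The comparison, the 39 gene lists and the naming rule were chosen with earlier results of these data known, and 2 more lists were added after the values were seen. The ribosomal protein lists were corrected then too, leaving out RPP1, a subunit of RNase P, and MRP8. The naming rule takes the 12 highest and 12 lowest genes, the 8 on each side furthest beyond their other differences, the 2 most different members of each list, all members of the pheromone and a-specific lists, and SET1, cyclins, SIC1, FAR1 and tubulins, and the text gives those its results turn on, with a few named after their values were seen. Promoters shown were chosen after their matches were seen. Alternatives were library totals, DESeq2 1.42.0 size factors, TMM of the arrested pair alone, other read minima and pseudocounts, poly(A) reads alone, and fewer other time points.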

Additional observations from a re-analysis of the deposited data

Results flagged for a closer look

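The median difference of the 7 a-specific genes was 0.51 at 0 min, on the other side of 0 from the medians at all 9 other time points (−3.48 to −0.44). At 0 min that median was the value of STE6, whose counting interval (−0.09 to 1.16) included no difference. The difference between the time points was not tested, since each had 1 library per strain.

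The median difference of the 21 measured glycolysis genes was −0.11 at 0 min, and the medians at all 9 other time points were above 0 (0.03 to 0.57). This difference was not tested either, and 5 of the 21 genes were at least 2-fold lower at 0 min.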

How the results depend on the processing

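The read minimum moved the counts most. Genes 2-fold higher numbered 137 with at least 100 reads in one library, 587 with 1 read, 184 with the same CPM minimum in both libraries and 91 with 30 reads in both, the last 2 minima chosen after seeing the data. Genes 2-fold lower numbered 128 with 100 reads, 392 with 10 reads and 618 with 1 read. Genes 2-fold higher and above the other time points numbered 91, 341, 119 and 63 under the same 4 minima in that order, and 109 with plain library totals. Genes 2-fold lower and below the other time points numbered 67 with 100 reads, 226 with 10 reads and 365 with 1 read. With 105 and 120 min left out of the other time points, 251 genes were higher and above the rest, and 194 lower and below. In the wild-type 120 min library the 10 most-read features held 21.6% of reads, the highest share of the 20 libraries. Scaling with plain library totals gave 262 higher and 266 lower genes, and DESeq2 size factors gave 259 and 274, and these shifted the median of all genes by −0.03 and −0.04. The median of the stress list was −1.54 with 30 reads in both libraries. No named gene or list median past 2-fold changed sign under any alternative run. Of 449 alternative list medians 412 moved by less than the SD of that list's other 9 medians, and 874 of 882 values of named genes stayed within the half-width of their counting interval, the other 8 moving with poly(A) reads alone. No paired analysis was possible because each strain and time point had 1 library and the results come from no test. At this depth, 3 reads correspond to 4.40 CPM in wild type and 1.97 CPM in set1Δ, so those of the 12 highest genes with 2 to 5 wild-type reads have wide intervals.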
